A study of Mus musculus with 26 samples.

Results

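The genes described here are 30 named genes of cholesterol synthesis and its control by SREBP2 and LXR: 8 of the mevalonate and isoprenoid steps, 3 from squalene to lanosterol, 9 from lanosterol to cholesterol, 5 for SREBP and its control, and 5 for a sterol carrier, LXR and efflux. They are a list of symbols with no threshold on a measured value, but chosen with earlier results of these data known. All 30 were found among the 54146 gene identifiers of the count files. The cells were mouse bone marrow cells without lineage markers, infected with a retrovirus for the leukemia fusion MLL-AF9 (MA9) and at the same time with SETDB1, a histone methyltransferase, or with the MSCVpuro empty vector (EV). Both arms therefore carried MLL-AF9, and both were grown in medium containing IL-3 and SCF. Culture lasted 8 to 12 weeks, with puromycin selection for about 3 to 6 weeks. Poly-A RNA was sequenced from 3 MA9+EV and 3 MA9+SETDB1 libraries, called biological replicates in the series design, and no label says whether each came from its own infection. The p-values thus measure the spread between these libraries, which may be technical. The question was which genes differ when SETDB1 is overexpressed. The other 20 samples, chromatin libraries, were not analysed here.

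Cholesterol is built from acetyl-CoA through mevalonate, isoprenoid diphosphates, squalene and lanosterol, and the enzymes of this route are controlled together. SREBP2 and its relative SREBP1 are transcription factors held in the endoplasmic reticulum by SCAP and the INSIG proteins when sterols are plentiful, and released to the nucleus when sterols fall. LXR receptors act in the opposite state, sensing oxysterols and switching on sterol exporters. Blood cells of the myeloid line use this balance during growth and when they take up lipid.

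Library totals ran from 18070482 to 22561757 gene counts. Setdb1 stood at 105, 108 and 109 CPM (counts of a gene per 1000000 counts of the library, after TMM scaling) in MA9+EV replicates 1, 2 and 3 and at 475, 605 and 607 CPM in MA9+SETDB1 (edgeR adjusted p = 2.42e-05). Transcripts of the construct and of the cells' own gene are not separated, and no label gives the species of SETDB1 or the mouse strain. Replicate 1 stood apart in both arms: the chi-square per gene between replicates 2 and 3 was 4.03 in MA9+EV and 2.99 in MA9+SETDB1, against 71.4 to 93.4 for pairs with replicate 1. The general leukocyte gene Ptprc was present in both arms, at 370 ± 84.7 and 105 ± 21.0 CPM, and of 6 blood and progenitor genes 2 were higher and 3 lower in MA9+SETDB1. Kit was among those lower, going from 114 ± 3.01 to 1.07 ± 1.22 CPM (edgeR adjusted p = 0.000232). Lineage markers moved with the arms. Of 7 mast cell and basophil markers 6 were higher in MA9+SETDB1, with summed levels of 25.9 to 33.5 CPM in MA9+EV and 7622 to 8789 CPM in MA9+SETDB1. The other, Tpsab1, was close to absent in both arms and not tested, at 0 in MA9+EV and at 1, 2 and 0 counts in MA9+SETDB1. Of 6 erythroid markers 5 were higher (0.702 to 1.41 against 446 to 654 CPM, with Alas2 and Car1 at 0 in MA9+EV), and all 5 eosinophil markers were (4.48 to 6.90 against 105 to 152 CPM, with Ccr3 and Il5ra at 0 in MA9+EV). All 4 primary granule markers present in the files were lower (13484 to 14843 against 39.4 to 124 CPM). Of 7 neutrophil markers 6 were lower and 1, Cxcr2, was higher (281 to 1417 against 68.2 to 85.0 CPM). Cxcr2 rose from 8.81 ± 5.4 to 69.9 ± 8.51 CPM and made up most of the MA9+SETDB1 sum. Of 5 megakaryocyte markers 1 was higher, Itga2b (0.210 ± 0.144 against 565 ± 69.1 CPM), and 1 was lower. Of 6 stromal and endothelial markers 1 was higher and 1 lower (230 to 365 against 162 to 216 CPM), and these genes made up nearly all of the sums. Pecam1 fell from 320 ± 78.0 to 129 ± 4.13 CPM, and Pdgfrb rose from 0.0612 ± 0.0343 to 54.1 ± 24.9 CPM. The other 4 were not tested and reached at most 0.364 CPM in any library. Monocyte markers split into 3 higher and 3 lower (931 to 1861 against 446 to 1399 CPM). B cell markers summed to at most 0.122 CPM and T and NK cell markers to at most 3.23 CPM. The part of these lineage differences in the sterol gene results was not tested. In bulk RNA, fewer cells of a type and less RNA per cell cannot be told apart.

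MA9+SETDB1 cells had more mRNA for some sterol enzymes, less for a few, and no called difference for others in the same route. Of 29 members that passed the low-count filter, 12 were higher and 3 lower in MA9+SETDB1 by edgeR's quasi-likelihood test at an adjusted p under 0.05, which is 41.4% and 10.3% of them. Over all 12986 tested genes 27.4% were higher and 26.2% lower. Hmgcs1, Fdft1, Lss, Lbr, Srebf1 and Abcg1 rose by more than 2-fold, whereas Sqle, Insig1, Mvk, Mvd and Idi1, genes of the same route or its control, did not pass. The median log2 fold change was 0.13 over the tested members and -0.01 over all tested genes. The arms did not overlap in CPM for 17 of 29 members (58.6%), against 64.6% of all tested genes. When replicates 2 and 3 of each arm were summed, leaving 2 libraries against 2, 7 members were called higher and 0 lower, with 16.4% and 13.8% of all genes called.

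Promoters are shown first because SREBP2 is known to act at promoters together with the factors NF-Y and Sp1, and because members with and without a change can be compared there. RefSeq promoters of GRCm38.p6, from 250 bases before to 50 bases after an annotated start, were found for 25 of 30 members, with 33 starts in all, and not for Fdps, Fdft1, Sqle, Stard4 and Abcg1. On both strands, 4 motifs were searched: a sterol response element (SRE) TCACNCCAC, the NF-Y box CCAAT, the GC box GGGCGG bound by Sp1, and the LXR element DR4, a direct repeat of AGGTCA with a gap of 4 bases. None of them contains another. CCAAT was found in 22 of 33 member promoters (66.7%), against 37.4% of all 32851 promoters in the table and 38.2% of the 12414 that belong to tested genes. GGGCGG was found in 26 of 33 (78.8%), against 35.7% and 61.2%. Some windows of the same gene overlap, so a match can be counted more than once. In Scap the same GGGCGG lay at 39 from start 1 and at -30 from start 2. The SRE was found at 1 start, that of Hmgcs1, against 1.24% and 1.18%, and DR4 at none, against 0.0152% and 0%. A match is a string of letters and was not tested for binding, and a window without one says only that these letters are not in it.

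These 5 promoters belong to the only member with an SRE match (Hmgcs1), the synthesis enzyme with the largest fitted rise (Lss), 2 enzymes for the same step that moved in opposite directions (Lbr and Tm7sf2), and a control gene that did not pass the test (Insig1). They are written 5′ to 3′ on the strand of the gene, with SRE, CCAAT and GGGCGG matches of either strand in capitals. Their positions are chr13:119690101-119690400 (plus strand), chr10:76531355-76531654 (plus), chr1:181842352-181842651 (minus), chr19:6067801-6068100 (minus) and chr5:28071162-28071461 (plus).
Hmgcs1: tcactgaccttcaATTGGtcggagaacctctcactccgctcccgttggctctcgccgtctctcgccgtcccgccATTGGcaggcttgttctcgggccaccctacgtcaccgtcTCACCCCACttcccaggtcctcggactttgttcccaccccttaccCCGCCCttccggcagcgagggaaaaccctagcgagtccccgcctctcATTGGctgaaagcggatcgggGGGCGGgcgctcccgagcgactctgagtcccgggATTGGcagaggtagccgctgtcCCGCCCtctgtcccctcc
Lss: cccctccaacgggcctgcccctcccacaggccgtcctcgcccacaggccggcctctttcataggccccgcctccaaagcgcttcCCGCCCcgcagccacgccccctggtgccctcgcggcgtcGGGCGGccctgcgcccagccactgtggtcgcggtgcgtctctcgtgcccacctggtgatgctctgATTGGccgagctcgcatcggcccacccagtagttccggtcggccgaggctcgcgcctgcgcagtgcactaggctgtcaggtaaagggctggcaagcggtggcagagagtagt
Lbr: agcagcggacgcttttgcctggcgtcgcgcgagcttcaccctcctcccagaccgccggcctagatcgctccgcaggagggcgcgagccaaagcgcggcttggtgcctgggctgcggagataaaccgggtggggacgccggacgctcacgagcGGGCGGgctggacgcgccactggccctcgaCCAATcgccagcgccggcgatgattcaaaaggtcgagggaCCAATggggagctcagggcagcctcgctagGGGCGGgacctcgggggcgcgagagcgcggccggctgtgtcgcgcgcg
Tm7sf2: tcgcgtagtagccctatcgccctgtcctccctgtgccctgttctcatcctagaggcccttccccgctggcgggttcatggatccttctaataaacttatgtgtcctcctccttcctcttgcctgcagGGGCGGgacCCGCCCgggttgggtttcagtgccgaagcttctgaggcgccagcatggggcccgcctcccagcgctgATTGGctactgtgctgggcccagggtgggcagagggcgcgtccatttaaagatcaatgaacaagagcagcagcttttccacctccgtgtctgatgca
Insig1: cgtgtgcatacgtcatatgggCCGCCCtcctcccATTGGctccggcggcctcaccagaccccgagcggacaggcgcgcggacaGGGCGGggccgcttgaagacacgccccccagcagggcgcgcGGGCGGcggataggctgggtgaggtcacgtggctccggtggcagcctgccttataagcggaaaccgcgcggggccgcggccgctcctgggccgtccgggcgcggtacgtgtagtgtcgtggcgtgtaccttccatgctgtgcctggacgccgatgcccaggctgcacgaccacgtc

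In the Hmgcs1 promoter the SRE began at position -137 from the start of the gene, with 4 CCAAT and 3 GGGCGG matches around it. Lss held 1 CCAAT match, at -62, Tm7sf2 1, at -47, Lbr 2, at -68 and -28, and Insig1 1, at -216. So a CCAAT match was present in promoters of genes that rose, fell and did not pass. Of the 25 members with a promoter, 21 held CCAAT at any of their starts, and those without it were Acat2, Scap, Nr1h2 and Abca1. A gene with more starts has more chances of a match. No share by gene was taken over all genes, so this count cannot be set against the shares by promoter.

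**Figure D1:**
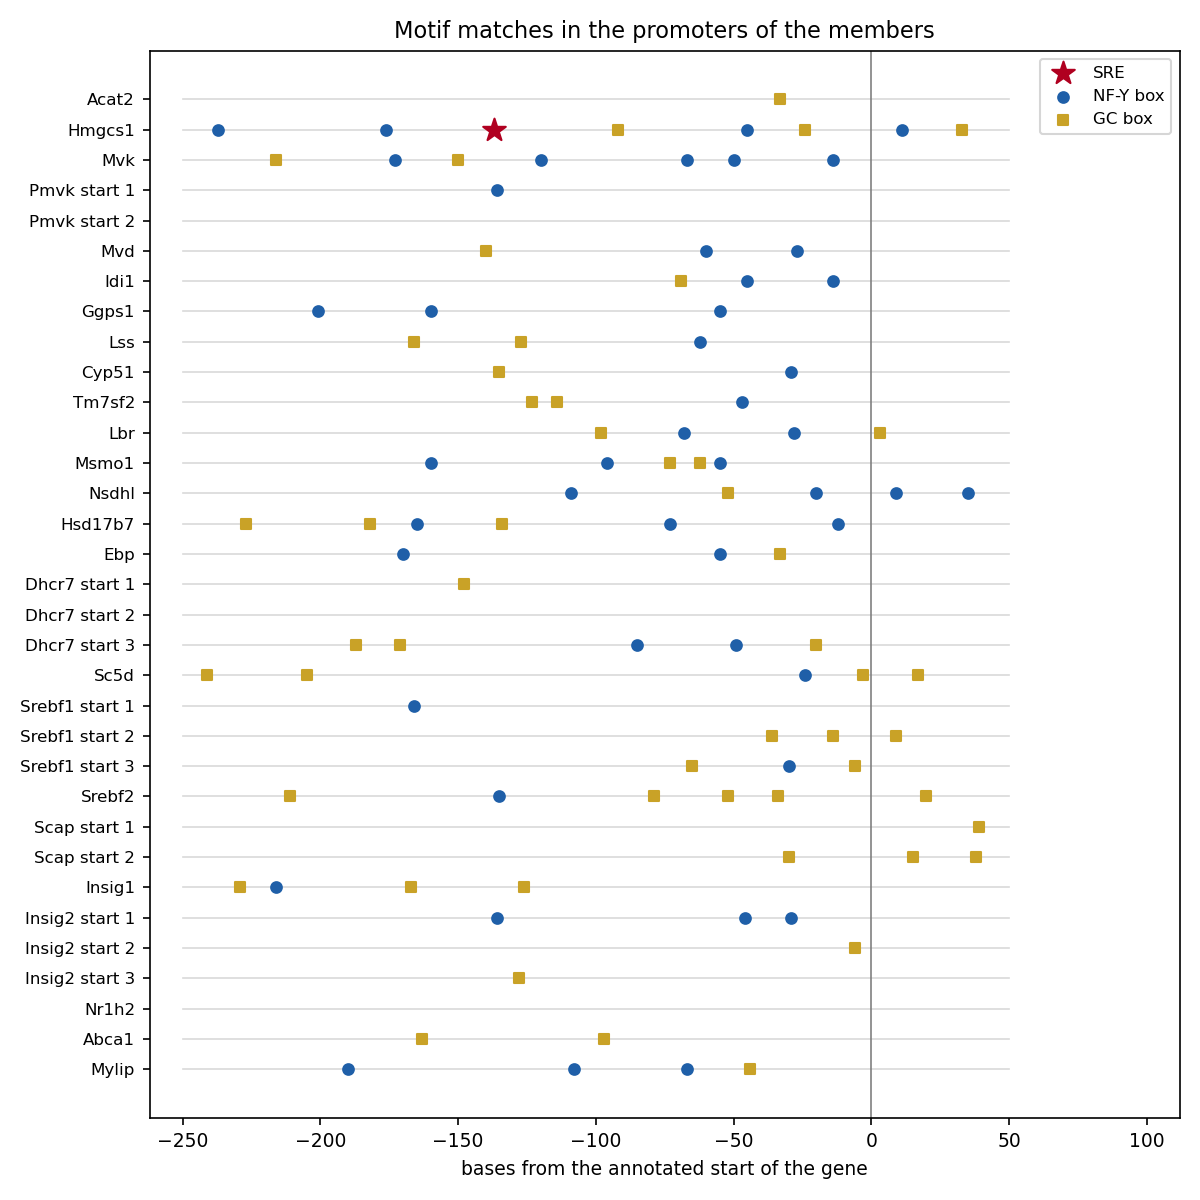
Each row is an annotated start of a member, the x axis gives bases from that start (negative is upstream), and symbols mark SRE (star), CCAAT or NF-Y (circle) and GGGCGG or GC box (square) matches on either strand. The 1 SRE match is in the Hmgcs1 row, at -137, and CCAAT matches lie in 22 of the 33 rows.

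Among the 8 mevalonate and isoprenoid genes, 2 rose, none fell and 6 did not pass, with a median log2 fold change of -0.05. The 25% that rose was near the 27.4% of all tested genes, of which 26.2% fell. Hmgcs1 (ENSMUSG00000093930.2, GRCm38 chromosome 13, 119690351 to 119708260), the synthase that joins acetoacetyl-CoA and acetyl-CoA, stood at 108, 108 and 101 CPM in MA9+EV replicates 1, 2 and 3. In MA9+SETDB1 it stood at 194, 307 and 300.1 CPM, every library above those of MA9+EV and replicate 1 the lowest. The mean rose from 106 ± 4.31 to 267 ± 63.2 CPM (mean ± SD, n = 3 per arm), a log2 fold change of 1.34 (standard error 0.19, edgeR adjusted p = 0.00111). Ggps1, which makes the geranylgeranyl group that anchors small GTPases, went from 33.2, 34.4 and 33.2 CPM to 49.3, 47.3 and 49.9 CPM. Its arms were far apart relative to their spread, with a log2 fold change of 0.54 (standard error 0.10, edgeR adjusted p = 0.00306), though the call was lost with replicates 2 and 3 summed (edgeR adjusted p = 0.0865).

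The other 6 genes of these steps did not pass. Acat2, the cytosolic thiolase at the entry, had a log2 fold change of -0.19 (standard error 0.14, edgeR adjusted p = 0.301), and the kinase genes Mvk and Pmvk of -0.19 and -0.02. Mvd, the mevalonate diphosphate decarboxylase, stood at 70.0, 78.3 and 72.8 CPM in MA9+EV and at 55.7, 68.3 and 67.0 CPM in MA9+SETDB1. The MA9+SETDB1 values all lay below those of MA9+EV, but the difference did not pass (log2 fold change -0.21, standard error 0.11, edgeR adjusted p = 0.162). Idi1, the isomerase of the isoprenoid unit, was counted at only 3.72 to 3.98 CPM in MA9+EV and 3.01 to 4.50 CPM in MA9+SETDB1. Fdps, which makes farnesyl diphosphate, stood at 23.6 to 28.5 and 18.3 to 27.5 CPM, with overlapping arms. The fitted direction of Pmvk, Idi1 and Fdps changed when single libraries were left out, and for Idi1 also under upper-quartile scaling. Reads that align to more than 1 place were not counted to genes, so a gene with near-identical copies can be undercounted.

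From squalene to lanosterol, the flanking enzymes rose and the middle one did not pass. Fdft1 (ENSMUSG00000021273.10, GRCm38 chromosome 14, 63145150 to 63181687), the squalene synthase at the branch to sterols, went from 41.2, 43.6 and 45.7 CPM in MA9+EV to 75.2, 98.1 and 100.2 CPM in MA9+SETDB1. The arms were well apart, with a log2 fold change of 1.07 (standard error 0.14, edgeR adjusted p = 0.000752). The annotated span of Fdft1 shares 774 bases with Ctsb, which stood at 351 ± 54.8 and 462 ± 133 CPM (edgeR adjusted p = 0.208), and how reads there were assigned is not known. Longer overlaps, with non-coding RNA genes not among the tested genes, were those of Lss (4930483K19Rik, 11269 bases), Insig1 (Gm35223, 7251 bases) and Mvd (Gm51557, 3213 bases). Lss (ENSMUSG00000033105.12, GRCm38 chromosome 10, 76531565 to 76557139), which closes the sterol rings, went from 99.6, 110.3 and 105 CPM to 218, 299 and 293 CPM, the largest fitted rise among the synthesis enzymes, close to that of Hmgcs1. Its log2 fold change was 1.36 (standard error 0.15, edgeR adjusted p = 0.00036). Sqle, the squalene epoxidase between them, stood at 151, 157 and 156 CPM in MA9+EV and at 161, 129 and 129 CPM in MA9+SETDB1. Replicate 1 of MA9+SETDB1 was the highest of all 6 libraries while replicates 2 and 3 were the lowest, and the difference did not pass (log2 fold change -0.15, standard error 0.12, edgeR adjusted p = 0.323). Without MA9+SETDB1 replicate 1 Sqle was called lower (log2 fold change -0.25, edgeR adjusted p = 0.029).

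**Figure D2:**
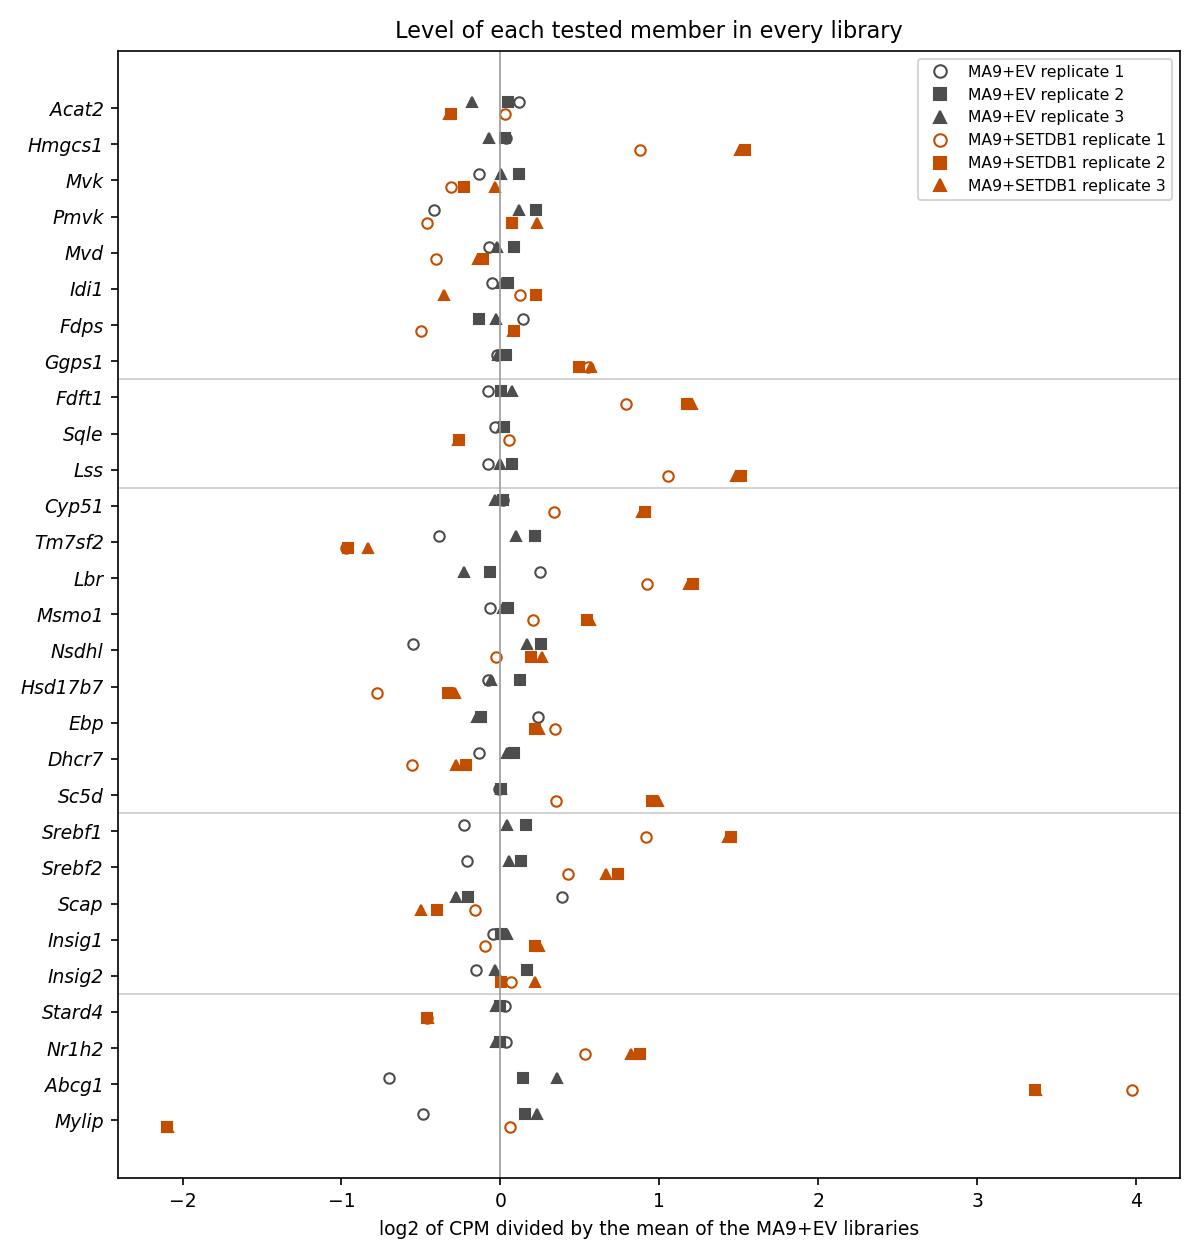
Each row is 1 of the 29 tested members in pathway order, and each point is 1 library, placed by the log2 of its CPM over the MA9+EV mean (grey MA9+EV, orange MA9+SETDB1; circles, squares and triangles are replicates 1, 2 and 3). Hmgcs1, Fdft1 and Lss have all orange points to the right of the grey ones, Sqle has not, and the open circle of MA9+SETDB1 replicate 1 often lies nearer to the grey points than the other orange points do.

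In the steps from lanosterol to cholesterol, 4 of 9 genes rose, 2 fell and 3 did not pass, with a median log2 fold change of 0.27. These shares were 44.4% higher and 22.2% lower, against 27.4% and 26.2% of all tested genes. Lbr and Tm7sf2 encode enzymes with the same sterol reductase activity, and they moved in opposite directions. Lbr (ENSMUSG00000004880.11, GRCm38 chromosome 1, 181815315 to 181842401) also encodes the lamin B receptor of the inner nuclear membrane, which tethers heterochromatin. It stood at 489.7, 393 and 350.4 CPM in MA9+EV and at 779, 954 and 936 CPM in MA9+SETDB1, with no overlap. The log2 fold change of Lbr was 1.11 (standard error 0.17, edgeR adjusted p = 0.00152). Tm7sf2 (ENSMUSG00000024799.15, GRCm38 chromosome 19, 6062821 to 6067850), whose product sits in the endoplasmic reticulum, went from 25.6, 39.0 and 35.9 CPM to 17.1, 17.2 and 18.9 CPM. MA9+EV replicate 1 was the lowest of its arm and still above every MA9+SETDB1 library. Tm7sf2 fell by 0.92 on the log2 scale (standard error 0.18, edgeR adjusted p = 0.00502), and this call was lost with replicates 2 and 3 summed (edgeR adjusted p = 0.0734).

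Cyp51, the lanosterol demethylase, went from 117, 117 and 113 CPM in MA9+EV to 146, 218 and 214 CPM in MA9+SETDB1. Its log2 fold change was 0.74 (standard error 0.16, edgeR adjusted p = 0.00836). Sc5d, a desaturase late in the route, was almost level among MA9+EV libraries at 88.8, 89.4 and 89.2 CPM and reached 114, 173 and 177 CPM in MA9+SETDB1 (log2 fold change 0.79, standard error 0.18, edgeR adjusted p = 0.00834). With replicates 2 and 3 summed, neither Cyp51 (edgeR adjusted p = 0.105) nor Sc5d (edgeR adjusted p = 0.0967) was called. Msmo1, the methyl sterol oxidase, went from 113, 122 and 119 CPM to 136, 173 and 175 CPM. Its arms did not overlap, but the change was modest (log2 fold change 0.45, standard error 0.12, edgeR adjusted p = 0.0195). The Msmo1 call was lost without replicate 2 or without replicate 3 of either arm (edgeR adjusted p from 0.0571 to 0.0768) and with these summed (edgeR adjusted p = 0.199).

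Hsd17b7, a ketoreductase of the same steps, went from 46.3, 53.2 and 46.8 CPM in MA9+EV to 28.5, 38.8 and 39.9 CPM in MA9+SETDB1. It fell by 0.45 on the log2 scale just within the threshold (standard error 0.16, edgeR adjusted p = 0.0473) and missed it in 8 of 12 alternatives, among them without any 1 of 5 libraries, all but MA9+SETDB1 replicate 1 (edgeR adjusted p from 0.0607 to 0.14). Dhcr7, which reduces the last double bond in one branch, lay just outside the threshold, at 117, 136 and 132 CPM in MA9+EV and 87.0, 110.1 and 106 CPM in MA9+SETDB1. Its arms did not overlap (log2 fold change -0.34, standard error 0.12, edgeR adjusted p = 0.0524), and Dhcr7 was called lower under upper-quartile scaling, with a replicate block and when MA9+EV replicate 1 was left out (edgeR adjusted p = 0.029, 0.0145 and 0.0367). In the other 9 alternatives Dhcr7 was not called, and with replicates 2 and 3 summed its edgeR adjusted p was 0.227. Ebp, a sterol isomerase, and Nsdhl, a sterol dehydrogenase, had log2 fold changes of 0.27 (standard error 0.13, edgeR adjusted p = 0.128) and 0.15 (standard error 0.22, edgeR adjusted p = 0.596). Nsdhl was low in MA9+EV replicate 1, at 47.6 CPM against 83.3 and 78.2 CPM in replicates 2 and 3, and its fitted direction turned without that library. Ebp was called higher without MA9+EV replicate 1 (log2 fold change 0.40, edgeR adjusted p = 0.0151).

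**Figure D3:**
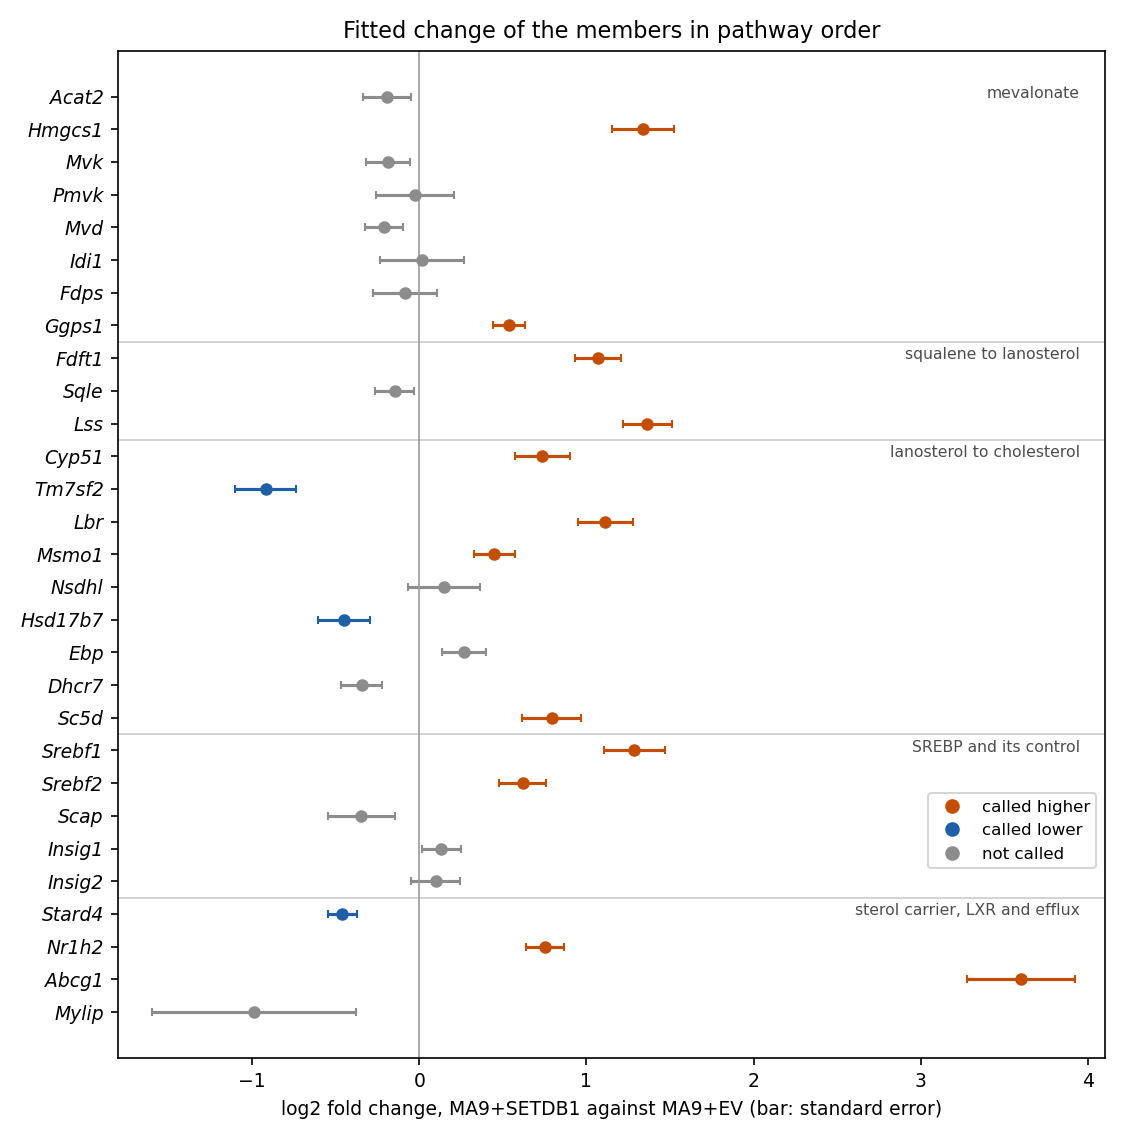
The fitted log2 fold change of each tested member (MA9+SETDB1 against MA9+EV) is plotted with its standard error, in pathway order, coloured by call at an edgeR adjusted p under 0.05. Along the route lie 5 uncalled genes in a row (Mvk to Fdps) and 5 called in a row (Lss to Msmo1), Lbr (1.11) and Tm7sf2 (-0.92) lie on opposite sides of 0, and Abcg1 (3.60) is the farthest from 0.

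The genes for both SREBP factors rose, while those that hold them in check or escort them did not pass. Srebf1 (ENSMUSG00000020538.15, GRCm38 chromosome 11, 60199084 to 60224186), known more for fatty acid genes, stood at 145, 189 and 174 CPM in MA9+EV and at 319.5, 463 and 458 CPM in MA9+SETDB1. The arms did not overlap, and the log2 fold change was 1.29 (standard error 0.18, edgeR adjusted p = 0.00125). Gene counts do not separate the Srebf1 transcripts that begin at its different starts. Rai1 shares 114 bases with the span of Srebf1 and fell from 101 ± 2.57 to 66.1 ± 3.67 CPM (edgeR adjusted p = 0.00141). Srebf2 (ENSMUSG00000022463.8, GRCm38 chromosome 15, 82147269 to 82205379), which encodes SREBP2, went from 268, 339 and 322 CPM to 417, 518 and 492 CPM. Its rise was smaller, at a log2 fold change of 0.62 (standard error 0.14, edgeR adjusted p = 0.00951), and was not called with replicates 2 and 3 summed (edgeR adjusted p = 0.11). In both factors replicate 1 was the lowest of each arm.

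Insig1, itself a known target of SREBP2, stood at 71.5, 73.8 and 76.0 CPM in MA9+EV and at 69.1, 85.7 and 87.5 CPM in MA9+SETDB1. MA9+SETDB1 held both the lowest and the highest library, and the difference did not pass (log2 fold change 0.13, standard error 0.12, edgeR adjusted p = 0.38). Without MA9+SETDB1 replicate 1 Insig1 was called higher (log2 fold change 0.24, edgeR adjusted p = 0.0305). Insig2, the second retention protein, stood between 18.6 and 24.0 CPM in all 6 libraries, with a log2 fold change of 0.10 (standard error 0.14, edgeR adjusted p = 0.598). Scap, the escort protein that carries SREBP to the Golgi, stood at 104, 68.5 and 65.0 CPM in MA9+EV and at 70.7, 60.0 and 55.8 CPM in MA9+SETDB1. The high value was MA9+EV replicate 1, and the difference did not pass (log2 fold change -0.35, standard error 0.20, edgeR adjusted p = 0.189).

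Genes for sterol transport and LXR moved in different directions. Abcg1 (ENSMUSG00000024030.6, GRCm38 chromosome 17, 31057694 to 31117984), a sterol exporter and known LXR target, went from 3.72, 6.68 and 7.76 CPM in MA9+EV to 94.9, 62.3 and 62.7 CPM in MA9+SETDB1. This was the largest change among the tested members, a log2 fold change of 3.60 (standard error 0.32, edgeR adjusted p = 0.000172), and here replicate 1 of MA9+SETDB1 was the highest. Abca1, the other exporter under LXR control, was close to absent, with 23 counts over the MA9+EV libraries and 1 over those of MA9+SETDB1, and was too low to be tested with the filter. The ratio of its normalized counts was 18.1 in favour of MA9+EV, with an exact 95% binomial interval from 2.93 to 744 that covers counting error only. Nr1h2, which encodes LXR-beta, went from 76.4, 74.4 and 73.1 CPM to 108, 137 and 132 CPM without overlap (log2 fold change 0.75, standard error 0.12, edgeR adjusted p = 0.0017).

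Stard4 (ENSMUSG00000024378.9, GRCm38 chromosome 18), a cytosolic sterol carrier known as a target of SREBP2, stood at 250.0, 245 and 241 CPM in MA9+EV and at 179, 178 and 179 CPM in MA9+SETDB1, with very little spread in either arm. Stard4 fell by 0.46 on the log2 scale (standard error 0.09, edgeR adjusted p = 0.00402), and the fall was not called with replicates 2 and 3 summed (edgeR adjusted p = 0.105). Mylip, the ubiquitin ligase that LXR induces to remove lipoprotein receptors, stood at 14.7, 23.0 and 24.2 CPM in MA9+EV. In MA9+SETDB1 it was 21.5 CPM in replicate 1 and 4.81 and 4.83 CPM in replicates 2 and 3, so this arm was split. The difference did not pass (log2 fold change -0.99, standard error 0.61, edgeR adjusted p = 0.212), and without MA9+SETDB1 replicate 1 it did (log2 fold change -2.08, edgeR adjusted p = 0.00109).

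**Figure D4:**
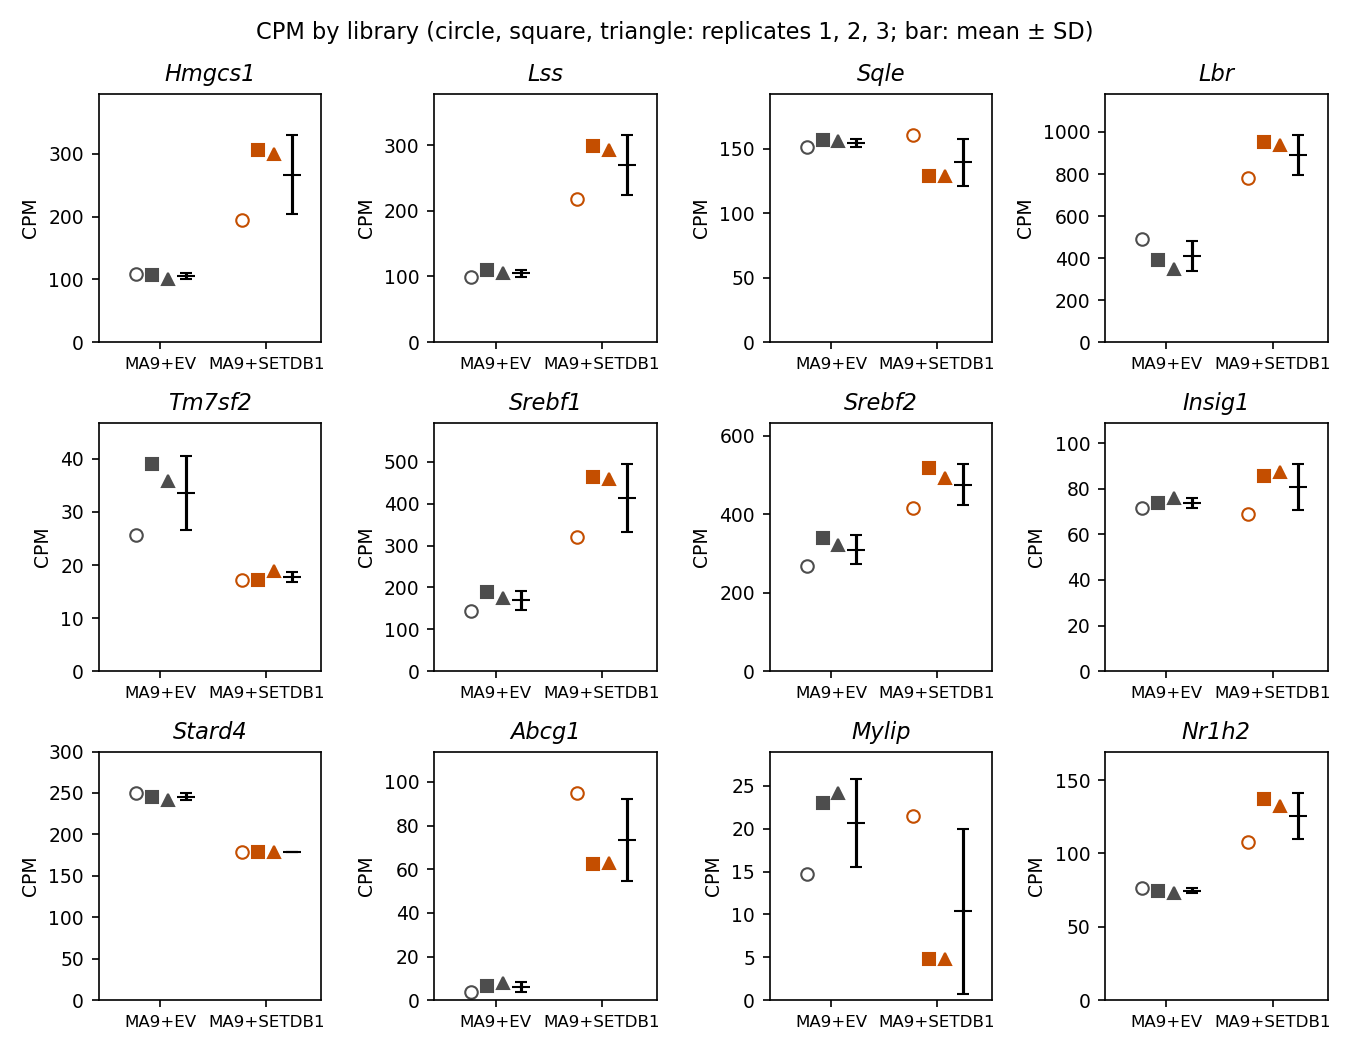
CPM of 12 members in each library (circle, square and triangle are replicates 1, 2 and 3) with the mean ± SD of each arm, each panel on its own linear axis from 0. Stard4 shows the least spread within arms, Mylip the split MA9+SETDB1 arm (21.5, 4.81 and 4.83 CPM), and Abcg1 the widest gap between arms relative to its level.

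MA9+SETDB1 replicate 1 lay nearest to the MA9+EV arm in 10 of the 12 members called higher, the exceptions being Ggps1 and Abcg1. For the 3 called lower it was replicate 3 that lay nearest to MA9+EV. Of the 15 calls, 13 held in the 11 alternatives other than the sum of replicates 2 and 3, the exceptions being Msmo1 and Hsd17b7. The calls of Hmgcs1, Fdft1, Lss, Lbr, Srebf1, Nr1h2 and Abcg1 held in all 12 alternatives run.

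Other genes of lipid metabolism, in lists also chosen with earlier results of these data known, give the setting. Of 15 fatty acid synthesis genes, all tested, 7 rose and 1 fell (46.7% and 6.67%, median log2 fold change 0.19), where 27.4% and 26.2% of all tested genes did. With the replicate number as a block 2 fell, Acly being added (edgeR adjusted p = 0.0346), where 29% of all tested genes fell. Acss2, which makes acetyl-CoA from acetate, went from 19.3 ± 9.97 to 261 ± 21.8 CPM, a log2 fold change of 3.76 (standard error 0.44, edgeR adjusted p = 0.000529). The desaturase gene Scd1 went from 20.2 ± 11.8 to 262 ± 88.4 CPM (edgeR adjusted p = 0.00187), and the elongase gene Elovl6 from 23.9 ± 3.89 to 70.3 ± 12.2 CPM (edgeR adjusted p = 0.000506). Mid1ip1, which helps acetyl-CoA carboxylase to polymerise, was the gene that fell, from 104 ± 2.76 to 57.4 ± 6.83 CPM (edgeR adjusted p = 0.000885). Fasn, the fatty acid synthase gene, was chosen for mention after its value was seen. Its log2 fold change of -0.32 did not pass (edgeR adjusted p = 0.203).

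Among 14 genes of isoprenoid branches leading away from sterols, 7 fell and 1 rose (50% and 7.14%, median log2 fold change -0.35), against 26.2% and 27.4% of all tested genes. Pdss1, which with Pdss2 makes the side chain of coenzyme Q, fell from 21.2 ± 1.04 to 8.16 ± 0.157 CPM (edgeR adjusted p = 0.00031). Pdss2 likewise fell, the MA9+EV mean being 15.4 ± 0.932 CPM and that with SETDB1 5.81 ± 0.193 CPM (edgeR adjusted p = 0.000502). Coq2, which attaches that side chain, and Dhdds, which makes dolichol, fell by 0.61 and 0.65 on the log2 scale (edgeR adjusted p = 0.00376 and 0.00111). Icmt, which methylates prenylated proteins, was the 1 gene of this list that rose (log2 fold change 0.47, edgeR adjusted p = 0.00453), named here after its value was seen.

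Genes of SREBP transport, cleavage and sterol-regulated degradation moved in both directions, with 7 of 19 higher and 6 lower (36.8% and 31.6%, median 0.14), not far from the shares over all genes (27.4% and 26.2%). Erlin1, an endoplasmic reticulum protein of sterol-regulated degradation, went from 135 ± 4.70 to 52.1 ± 4.61 CPM (edgeR adjusted p = 8.1e-05). Sec24a, a coat protein of vesicles leaving the endoplasmic reticulum, and Fbxw7, which marks nuclear SREBP for removal, rose by log2 fold changes of 1.09 and 1.34 (edgeR adjusted p = 0.000297 and 0.000541).

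For sterol uptake, trafficking and esterification, 4 of 17 tested genes rose and 6 fell (23.5% and 35.3%, median 0.10), again near the 27.4% and 26.2% of all genes. The genes of the esterifying enzymes moved in opposite directions. Soat1 went from 119.5 ± 32.6 to 6.53 ± 5.59 CPM (edgeR adjusted p = 0.00118) and Soat2 from 5.10 ± 2.33 to 23.7 ± 0.925 CPM (edgeR adjusted p = 0.00242). Stard5, a sterol carrier related to Stard4, went from 17.4 ± 0.396 to 2.00 ± 1.52 CPM (edgeR adjusted p = 0.00188), and Gramd1c, a sterol transfer protein at membrane contacts, from 0.959 ± 0.184 to 11.5 ± 1.35 CPM (edgeR adjusted p = 7.1e-05). Among oxysterol enzymes and LXR partners, 2 of 7 tested genes rose and 2 fell (28.6% each, median -0.21), close to the all-gene shares of 27.4% and 26.2%. Lpcat3, a phospholipid enzyme known as an LXR target, went from 109 ± 16.3 to 312 ± 57.7 CPM (edgeR adjusted p = 0.000592), and the coactivator gene Ncoa1 from 30.3 ± 7.72 to 8.12 ± 1.79 CPM (edgeR adjusted p = 0.00101). The hydroxylase genes that make oxysterols, Ch25h and Cyp27a1, were each counted almost only in 1 arm. For Ch25h this was MA9+SETDB1, with 539 counts against 1, or 686 times the normalized level (exact 95% binomial interval 123 to 27150, for counting error only). The spread between libraries was wide, at 1.68, 13.5 and 15.0 CPM in MA9+SETDB1 replicates 1, 2 and 3. For Cyp27a1 it was MA9+EV, with 631 counts against 0, so its level was at least 165-fold lower with SETDB1 when 3 counts over the arm are taken as the floor.

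**Figure D5:**
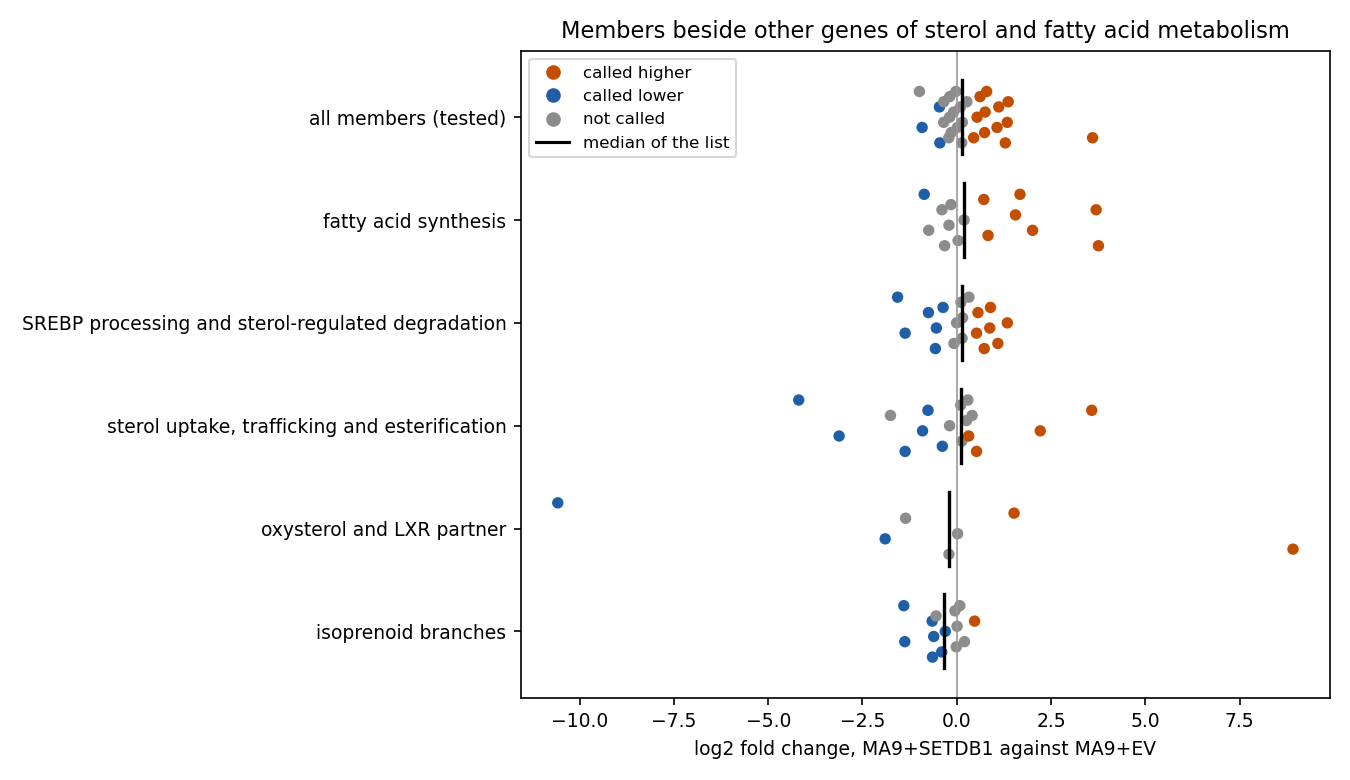
Fitted log2 fold changes (MA9+SETDB1 against MA9+EV) of the tested members and of 5 lists of related genes, each point a gene coloured by call and the bar the list's median. Medians lie between -0.35 (isoprenoid branches) and 0.19 (fatty acid synthesis), and the farthest points, Cyp27a1 and Ch25h, are fitted values of genes with 0 or 1 counts in an arm, which depend on the fit's prior count.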

How the data were processed

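Gene expression was measured by RNA-seq in 6 mouse libraries. The deposited values are raw read counts per gene, 1 file per library, from strand-specific poly-A libraries per the labels' protocols. The submitters' processing notes name build GRCm38 and, without role or order, tools that include STAR 2.6.0c and HTSeq 0.11.0. Whether counting used strand is stated nowhere in these sources, so genes that overlap are uncertain. Summary lines, for reads not assigned to a gene, held 24.6% to 26.3% of the reads counted in each file and were left out. Most were reads that aligned to more than 1 place, 18.4% to 20.24%.

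Genes were filtered with filterByExpr by group, scaled with TMM and tested across all 12986 genes with edgeR 4.0.16 (R 4.3.3) quasi-likelihood F-tests, with Benjamini-Hochberg adjustment and a threshold of 0.05; standard errors were derived from F. The fit was tested on simulated data. The alternatives were RLE and upper-quartile scaling, DESeq2 1.42.0, no low-count filter, a replicate block, each library left out, and replicates 2 and 3 summed. Gene symbols were looked up by identifier, with 67 of 54146 unmatched, and coordinates and promoters from RefSeq GRCm38.p6. No exon lengths were used, so levels are compared only within a gene.

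The main test used group alone, so its p-values ignore any pairing, and the replicate number entered only as the block of an alternative. With each arm's mean removed, libraries of the same number correlated at 0.271, 0.225 and 0.205 for numbers 1, 2 and 3. No label gives a pairing, and replicate 2 of either arm correlated as well with replicate 3 of the other (0.24 and 0.204). Pairs of replicate 1 with replicate 2 or 3 of the other arm ran from -0.257 to -0.226. The correlations thus set replicate 1 apart but do not pair replicates 2 and 3 by number.

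The members and lists were chosen with earlier results of these data known. The genes named are all members, Setdb1, and from each other list up to 4 tested genes with the smallest p, besides genes that overlap a member. Acly, the blood, lineage and stromal markers and those marked so in the text were named after their values were seen. Some genes of these lists are not reported here by name. A count of 3 equals 0.124 to 0.183 CPM in a library.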

Additional observations from a re-analysis of the deposited data

How the results depend on the processing

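No called member changed direction in any of the 12 alternatives. Of 348 member values under alternatives, 312 kept their direction and side of the threshold, 19 lost and 7 gained a call, and 10 changed sign, all of them for uncalled members. These were Pmvk (-0.20 to 0.17 with single libraries left out), Idi1 (-0.10 to 0.18, -0.052 under upper-quartile scaling and -0.00037 with the replicate block), Fdps (-0.17 to 0.10) and Nsdhl (-0.070 to 0.29). With the replicate block 12 members were higher and 4 lower, Dhcr7 being added, where 29.2% and 29% of all tested genes were. Among the other lists only Acly changed its call, so that 2 fatty acid synthesis genes fell. The block changed no other call among the listed genes.

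Summing replicates 2 and 3 of each arm, which leaves fewer libraries, gave the fewest calls. Over all genes 2292 were higher and 1928 lower (16.4% and 13.8%), against 3554 and 3397 (27.4% and 26.2%). Members higher and lower were 7 and 0, all 7 also called with 6 libraries. Among the member lists, higher calls were 1 for mevalonate, 2 for squalene to lanosterol and 1 for lanosterol to cholesterol. They were 1 for SREBP control and 2 for carrier, LXR and efflux. In the other lists, 5 were for fatty acid synthesis, 3 for SREBP processing and 2 for sterol uptake. Oxysterol and LXR partners had 2 and isoprenoid branches 0. Lower calls were 0 in every member list. They were 1 for fatty acid synthesis, 2 for SREBP processing, 3 for sterol uptake and 3 for isoprenoid branches. Oxysterol and LXR partners had 2 lower. From lanosterol to cholesterol 1 gene was lower with RLE scaling and 1 with no low-count filter, Hsd17b7 being lost in each. In the carrier, LXR and efflux list 2 were lower with DESeq2 and 2 with no low-count filter, Abca1 being added (adjusted p = 0.0347 and 0.0216). Over all tested genes 25.8% of 12986 were lower with RLE scaling, 14.5% of 24595 with no low-count filter and 22.8% of 16538 with DESeq2. The numbers lower were 3354, 3565 and 3775, against 3397 in the main fit.

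With single libraries left out, members lower ranged from 2 to 5, the 5 arising without MA9+SETDB1 replicate 1, when Sqle and Mylip were added. Of all tested genes 29.7% were lower in that fit, against 20.1% to 25.9% with any other library left out. Shares of all tested genes higher ran from 22.1% to 30.9%, the largest in that same fit. Lower calls ranged from 0 to 1 for squalene to lanosterol, 1 to 2 for lanosterol to cholesterol, 1 to 2 for carrier, LXR and efflux, 1 to 3 for fatty acid synthesis and 2 to 4 for oxysterol and LXR partners. Higher calls for sterol uptake ranged from 2 to 5. The level per length, and with it its alternative, was not run. With 3 libraries per arm, a p that misses the threshold does not show that a gene was level.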
